A study of Mus musculus with 8 samples.

Results

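Dark rearing was examined in the control animals of this series, that is in 4 of its 8 single-nucleus RNA libraries, chosen by the genotype recorded for each nucleus and split by rearing condition into 2 normally reared (NR) and 2 dark-reared (DR) libraries. Together they held 55429 of 102330 nuclei. Every animal was a GRfl/fl mouse, in which the glucocorticoid receptor gene Nr3c1 is flanked by loxP sites, taken at postnatal day 21, and each library came from primary visual cortex (V1). The control animals (GR-Con) had received, at birth, AAV2/5 carrying an inactive Cre (ΔCre) and membrane-targeted EGFP behind the astrocyte promoter GfaABC1D, so the receptor gene stayed intact in all 4, and the other 4 libraries (GR-KO, active Cre from the same promoter) served here only as a separate set for side-by-side values. NR mice lived on a light and dark cycle and DR mice in darkness until collection. Each group had 1 female and 1 male library, and the nuclei had been sorted for the DNA dye DRAQ5 and against GFP. Astrocytes still held 64 to 143 EGFP UMIs a library.

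V1 receives its sensory drive from the eyes through the thalamus, with thalamic axons ending most densely in layer 4, from which activity spreads to layers 2/3, 5 and 6. Light-driven firing switches on immediate early transcription factors within minutes and, through them, effector genes for secreted peptides, growth factors and synaptic proteins. Rearing in the dark removes that drive and delays the maturation of inhibition, of perineuronal nets around parvalbumin interneurons and of layer 2/3 cell identities.

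UMIs (unique molecular identifiers, 1 for each captured RNA molecule) were summed per library and deposited cell type, and values are given as CPM, the UMIs of a gene per 1000000 UMIs of that library and type, with the female library before the male. Libraries held 13144 to 15161 nuclei and 206271296 to 288774016 UMIs. The lowest UMI count of a nucleus differed by library, at 1402 and 4635 in NR and 5704 and 1409 in DR, and no nucleus with fewer UMIs is present in that library. Its part in the numbers of small, RNA-poor nuclei was not tested. Tested glia lay near these limits, with median UMIs in astrocytes of 5586.5 and 6267 in NR and 7199 and 5307 in DR. OPC (oligodendrocyte precursor) medians were 5413 and 6229 in NR and 7245 and 5860 in DR. Microglia numbered 573 and 2 in NR and 4 and 885 in DR, so microglia, endothelial cells, smooth muscle and pericytes, vascular leptomeningeal cells and chandelier cells had under 10 nuclei in some library and were not tested. The other 15 types were. Of 75 defining markers, 60 were highest in their own type, but none of 4 was for L6IT, 1 of 4 for L4 and 1 of 3 for L5PT, and these 3 names rest on the deposited labels. EGFP gave 97 to 176 UMIs per library and ΔCre 41 to 83, while Cre gave 0, which allows up to 3 UMIs a library. There were 304 cell barcodes present in more than 1 of the 4 libraries, of 55121 distinct barcodes. With 2 animals a group and no replicate block, p-values measure the spread between these 4 libraries.

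Most genes that differed between dark and normal rearing were found in excitatory neurons, and more were higher than lower in darkness. In the 8 excitatory types, 4240 of 120411 gene and type pairs were called (3.52%), 2617 higher and 1623 lower in DR, from 2640 genes. In the 4 inhibitory types 423 of 53010 pairs were called (0.798%), 285 higher and 138 lower, though without the NR female library the share higher was 47.4% instead of 67.4%. In astrocytes, oligodendrocytes and their precursors (OPC) 122 of 38925 were called (0.313%), 99 higher and 23 lower. A call is an adjusted p under 0.05 in the edgeR likelihood ratio test, with Benjamini-Hochberg adjustment within the cell type. The stricter edgeR quasi-likelihood F-test called 965, 85 and 1 pairs (0.801%, 0.16% and 0.00257%), all of them also called by the likelihood ratio test in the same direction. Of genes called higher in L2/3, L4 and L5IT, 43.0%, 41.8% and 22.3% had DR and NR libraries fully apart the same way in GR-KO. Over all tested genes these shares were 46.6%, 41.5% and 30.8%, and over genes called lower 85.0%, 79.6% and 50.5%. In L6CT and L6IT both directions lay above the share of all tested genes, as given further on. A fit without 1 library leaves 1 library in a group, so its spread comes from the other group's pair alone. Excitatory calls were fewer without either NR library and more without either DR library.

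Within the excitatory class L2/3 and L5IT had the most calls. L2/3 had 1357 called genes, 7.45% of those tested, with 838 higher (4.6%) and 519 lower (2.85%) in DR. L5IT had 877 (6.14%), with 584 higher (4.09%) and 293 lower (2.05%). With a minority of L5IT nuclei left out, as described further on, its number fell below those of L4, L5PT and L6CT. No nuclei were left out of those types, so the numbers are not on equal terms. L4 had 607 (3.44%), with 411 higher (2.33%) and 196 lower (1.11%). In L5PT 532 were called (3.6%), 266 in each direction (1.8% each), and in L6CT 484 (2.99%), 276 higher (1.71%) and 208 lower (1.29%). L6IT had 219 (1.42%), with 141 higher (0.917%) and 78 lower (0.507%), L5NP 120 (0.994%), with 75 higher (0.621%) and 45 lower (0.373%), and L6b 44 (0.37%), with 26 higher (0.219%) and 18 lower (0.151%). Among interneurons Pvalb cells had 217 (1.48%), 144 higher (0.981%) and 73 lower (0.497%), Sst 101 (0.725%; 0.567% and 0.158%), Vip 59 (0.453%; 0.261% and 0.192%) and Lamp5 46 (0.404%; 0.246% and 0.158%). The quasi-likelihood test called 0 genes in L6IT and L6CT, with 1380 and 2128 at an unadjusted p under 0.05. Numbers of nuclei and UMIs differed among the types, and calls depend on them. Thinned to 1000000 UMIs per library and type, L5IT had 255, L2/3 228, L6CT 127, L5PT 108, L4 89, L5NP 56, L6IT 49, Pvalb 38 and L6b 26.

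**Figure D1:**
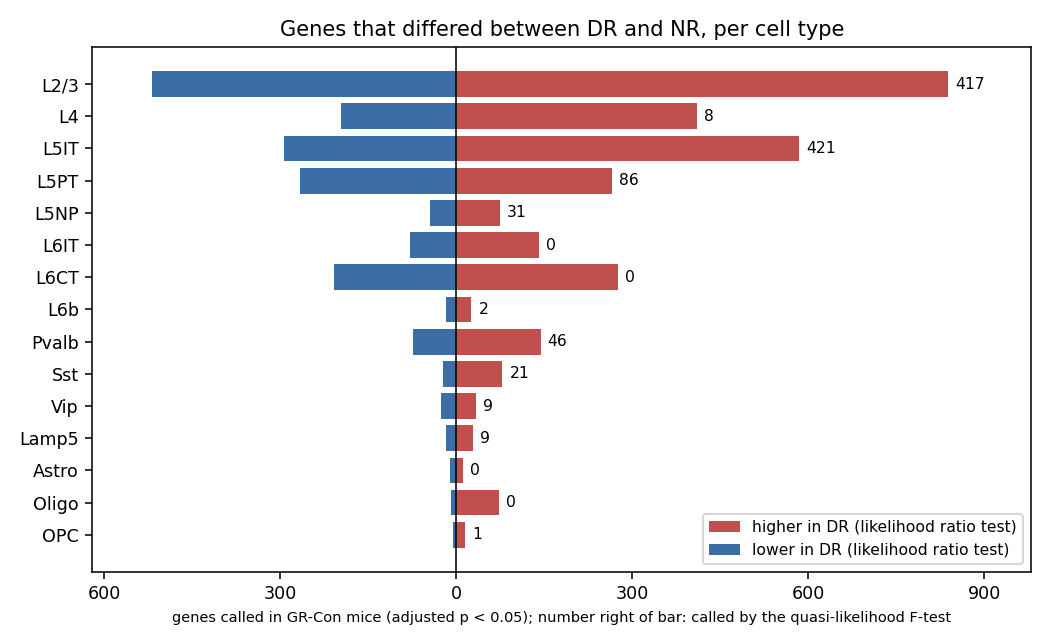
Genes called in GR-Con animals by the edgeR likelihood ratio test for each of 15 cell types, with genes higher in DR to the right, genes lower in DR to the left, and the number called by the quasi-likelihood F-test written beside each bar. L2/3 (838 higher, 519 lower) and L5IT (584 and 293) had the longest bars, and L6IT and L6CT had 0 quasi-likelihood calls beside 219 and 484 by the likelihood ratio test.

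The response to darkness shared by the most cell types was a fall of Osbpl3, which encodes an oxysterol-binding-protein-related lipid transfer protein of the endoplasmic reticulum and plasma membrane contact. The gene lies on chr6:50293330-50456201 on the minus strand (GRCm38). It was lower in DR in all 8 excitatory types, all 4 inhibitory types, astrocytes and OPC. In L2/3 it stood at 352 and 337 CPM in NR and 70.7 and 64.6 in DR (345 ± 10.9 against 67.7 ± 4.31, SD, n = 2), a log2 fold change of -2.40 (SE 0.16, edgeR adjusted p 9.0e-49). In L5IT it was 537 and 512 in NR and 99.1 and 96.7 in DR (-2.42, SE 0.15). Both DR libraries lay far below both NR libraries in each of these types.

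Pvalb, Vip and Lamp5 interneurons carried more Osbpl3 RNA in NR than any excitatory type but L6b, or as much, and the 4 inhibitory types had log2 fold changes from -2.02 to -1.54. Pvalb cells had 1234 and 1154 CPM in NR and 372 and 410 in DR (-1.61, SE 0.13), Vip cells 1032 and 988 against 259 and 239 (-2.02, SE 0.14), and Lamp5 cells 1321 and 1132 against 314 and 384 (-1.77, SE 0.17). Sst cells had 557 and 551 against 188 and 194 (-1.54, SE 0.13). The other excitatory types ranged from -2.18 in L5PT to -1.56 in L6CT, with the highest NR levels in L6b, at 1017 and 989 CPM against 299.8 and 335 in DR. OPC had 155 and 159 against 45.8 and 59.7 (-1.55, SE 0.18). In astrocytes the level was low, 27.5 and 27.8 against 13.6 and 7.33 (-1.43, adjusted p 0.014), and in oligodendrocytes 45.6 and 29.9 against 19.0 and 6.22 missed the threshold (-1.64, SE 0.47, edgeR adjusted p 0.063). Groups did not overlap in any of the 15 types, beside 32.6% to 51.8% of all genes tested in a type. Nuclei with at least 5 Osbpl3 UMIs made up 90.1% and 91.2% of L5IT in NR and 17.8% and 15.7% in DR. In the GR-KO libraries Osbpl3 in L2/3 was 228 and 227 CPM in NR and 97.7 and 122 in DR, a log2 fold change of -1.01, and the difference between the genotypes' changes was -1.38 (edgeR likelihood ratio test, adjusted p 9.4e-07). The quasi-likelihood test called no such difference in L2/3 (0 genes, with 1307 at an unadjusted p under 0.05 in the likelihood ratio test).

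**Figure D2:**
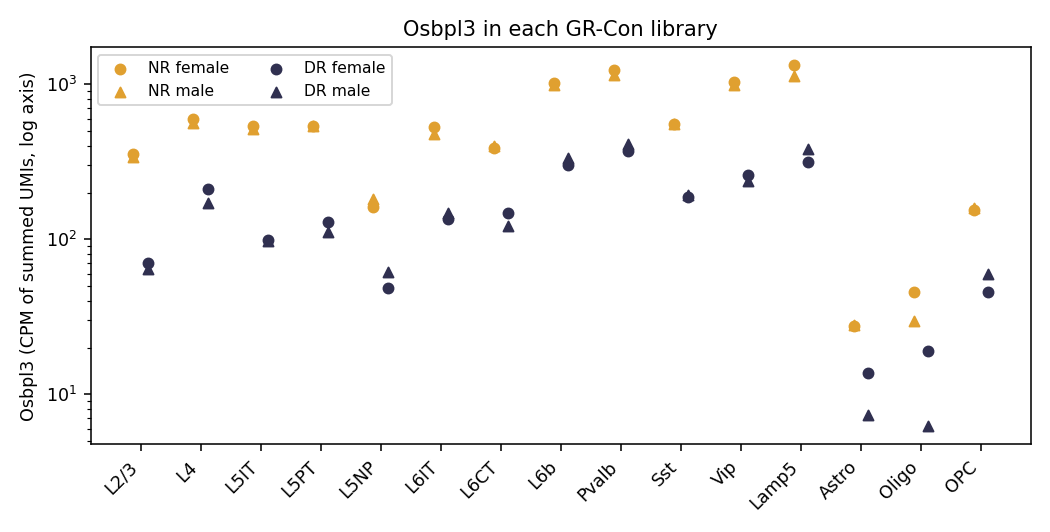
Osbpl3 in CPM of summed UMIs (log axis) in each GR-Con library for 15 cell types, NR in orange and DR in dark, circles for female and triangles for male libraries. In every type both DR points lie below both NR points, from 1321 and 1132 against 314 and 384 in Lamp5 to 27.5 and 27.8 against 13.6 and 7.33 in astrocytes.

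Other genes fell or rose together across layers. Of the genes called in excitatory types, 1725 were called in 1 type, 915 in at least 2 and 186 in at least 4. Of the last, 177 had at least 4 calls in the same direction. In all, 86 genes were higher in at least 1 type and lower in another. The genes called higher in the most types were Syt17, Arhgef28, St6galnac5 and Ptpru (7 types each). They were followed by 11 genes higher in 6 types each, of which AU022754 and Col23a1 had the smallest median p and are named. Those called lower in the most, after Osbpl3, included Strip2 and Hbb-bs (7 each) and, among the genes lower in 6 types, Gm13629 and Ciart.

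Col23a1, a transmembrane collagen, rose in L2/3, standing at 25.8 and 24.3 CPM in NR and 74.3 and 77.5 in DR (1.55, SE 0.15, edgeR adjusted p 1.6e-21). Arhgef28, a guanine nucleotide exchange factor, went from 34.8 and 37.1 to 106 and 82.0 in L2/3 (1.34, SE 0.18), and Syt17, a synaptotagmin family member, from 74.6 and 65.9 to 144 and 129 (0.91, SE 0.16). Ptpru, a receptor-type tyrosine phosphatase, went from 4.42 and 3.53 to 21.1 and 16.5 in L5IT (2.24, SE 0.25). In each case NR libraries were close together and DR libraries were higher. The sialyltransferase gene St6galnac5 was less even, with 5.55 and 6.31 in NR but 43.9 and 130 in DR in L2/3 (3.84, SE 0.54), so the DR libraries were themselves far apart. AU022754 was below 2 CPM in L2/3 in every library (0.196 and 0.17 against 1.98 and 1.45).

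On the falling side, Strip2, a member of the striatin-interacting protein family, dropped in L6CT from 27.9 and 25.5 CPM to 6.27 and 7.25 (-1.98, SE 0.19, edgeR adjusted p 9.4e-21) and in L2/3 from 32.9 and 33.5 to 12.1 and 18.9 (-1.14). Ciart, a repressor of the circadian clock, went from 15.4 and 10.9 to 4.96 and 5.32 in L2/3 (-1.40, SE 0.24). Gm13629, a predicted gene, went from 23.8 and 27.7 to 9.92 and 8.53 (-1.52, SE 0.16). The other clock genes called lower were Dbp in L2/3, L4, L5IT and Pvalb, Rorb in L2/3, L5IT and L5PT, and Per2 in L5NP, and Bhlhe40 was higher in L2/3 (6.34 and 6.06 against 18.2 and 12.4). Over 19 clock genes in excitatory types, 1 pair was higher and 13 lower of 150, of which the quasi-likelihood test called 5. The 13 lower pairs came from 4 of the 19 genes, and Ciart made up 6 of them. The share called was 9.33%, with a median log2 fold change of -0.11, against 3.52% and -0.0018 over all pairs tested. Per the study's methods, animals of both rearing conditions were taken in 1 fixed window of the day under red light. The part of clock phase in these values was not tested.

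**Figure D3:**
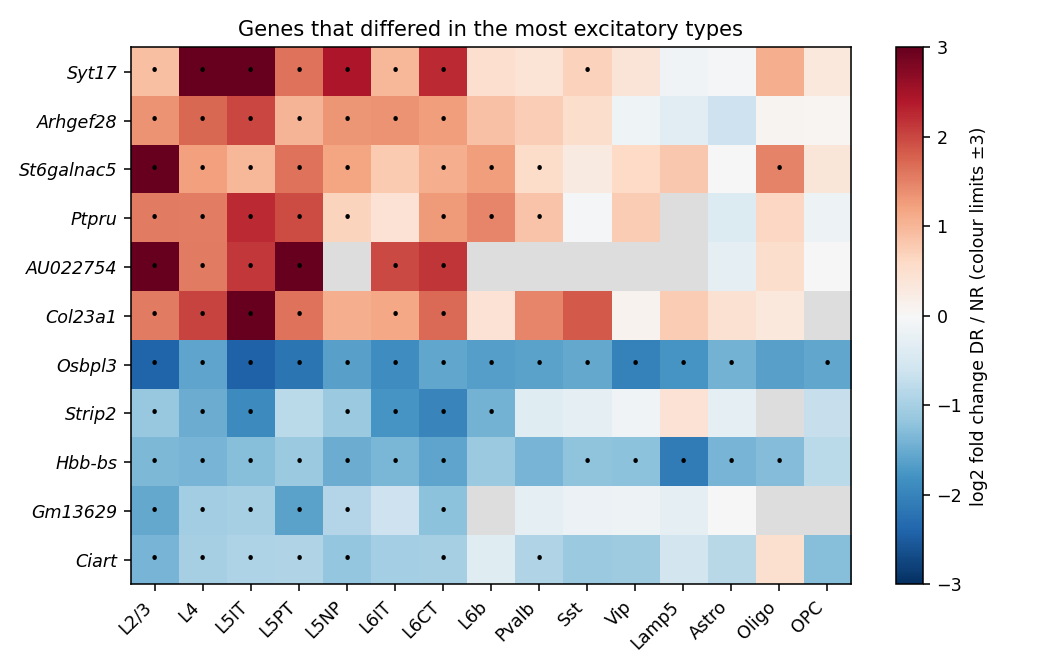
Log2 fold change of DR over NR in GR-Con animals (colour, limits ±3) for 11 genes across 15 cell types, with a dot where the gene was called and grey where it was not tested. Genes called higher in DR come first and genes called lower follow. Within each direction they are ordered by the number of excitatory neuron types in which they were called and then by median p. Osbpl3 carries a dot in 14 of the 15 types, and Hbb-bs carries dots in Sst, Vip, Lamp5, astrocytes and oligodendrocytes as well as in excitatory neurons.

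Haemoglobin is known from red blood cells and myelin proteins from oligodendrocytes, and genes of both were called lower in several neuron types. Hbb-bs, adult beta-globin of red blood cells, went from 6.65 and 10.0 CPM to 3.27 and 3.51 in L2/3 (-1.34, SE 0.25), and was also called lower in Sst, Vip, Lamp5, astrocytes and oligodendrocytes. Over the myelination list 23 pairs were lower and 2 higher of 132 in excitatory types (18.9%, median -0.40, 24 of 24 genes tested). Over all excitatory pairs the share was 3.52% and the median -0.0018. The quasi-likelihood test called 3 of the 25 myelination pairs. Summed over 4 oligodendrocyte markers, L2/3 nuclei held 23.8 and 30.3 CPM in NR and 17.2 and 15.2 in DR, beside 10024 and 10119 against 8424 and 8583 in oligodendrocytes themselves. The part of RNA from other cells in the neuronal values was not tested.

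The promoters of a few of these genes are shown because they hold, or lack, the letters that activity-regulated and clock factors are known to bind. Each covers the window around the start of the gene, most of it upstream, 5′ to 3′ on the gene's strand (minus for all 4), from RefSeq on GRCm38.p6, with matches in capitals. The motifs searched, on both strands, were TGANTCA (AP-1), TGACGTCA (the cAMP response element, CRE), GCGTGGGCG (EGR), CACGTG (E-box) and the palindromic glucocorticoid response element (GRE). Scg2 encodes secretogranin II, a precursor of secreted peptides that fell in L2/3 (values further on).
Osbpl3, chr6:50456121-50456420, no match: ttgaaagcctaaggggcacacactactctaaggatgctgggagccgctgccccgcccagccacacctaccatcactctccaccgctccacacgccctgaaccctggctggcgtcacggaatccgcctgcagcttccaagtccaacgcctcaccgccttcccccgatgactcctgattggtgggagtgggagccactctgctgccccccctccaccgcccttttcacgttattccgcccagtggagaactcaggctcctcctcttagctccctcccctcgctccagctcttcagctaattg
Ciart, chr3:95882179-95882478, E-box at bases 135, 193 and 207: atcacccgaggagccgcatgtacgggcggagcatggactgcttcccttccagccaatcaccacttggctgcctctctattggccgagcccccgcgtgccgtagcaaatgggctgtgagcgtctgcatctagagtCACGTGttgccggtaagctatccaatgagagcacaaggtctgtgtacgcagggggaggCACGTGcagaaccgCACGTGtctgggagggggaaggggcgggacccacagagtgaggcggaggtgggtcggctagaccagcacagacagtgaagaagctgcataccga
Ptpru, chr4:131838229-131838528, CRE at base 210: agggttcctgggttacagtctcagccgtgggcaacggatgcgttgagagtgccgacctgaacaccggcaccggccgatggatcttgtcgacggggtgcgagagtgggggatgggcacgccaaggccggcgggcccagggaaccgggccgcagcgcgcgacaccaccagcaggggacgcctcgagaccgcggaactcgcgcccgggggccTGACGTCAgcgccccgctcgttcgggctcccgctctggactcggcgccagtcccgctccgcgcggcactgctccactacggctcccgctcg
Scg2, chr1:79439977-79440276, CRE at base 183: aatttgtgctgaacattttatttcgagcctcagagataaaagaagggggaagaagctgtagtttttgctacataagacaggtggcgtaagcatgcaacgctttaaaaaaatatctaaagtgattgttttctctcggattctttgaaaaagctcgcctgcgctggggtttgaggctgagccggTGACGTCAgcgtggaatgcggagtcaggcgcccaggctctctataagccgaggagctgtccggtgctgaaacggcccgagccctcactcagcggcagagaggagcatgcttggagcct
Of all 32851 promoters of this length, 7.81% held the AP-1 letters, 1.79% the CRE, 0.612% the EGR, 7.15% the E-box and 0.475% the GRE. For genes higher in DR in at least 4 excitatory types (86 of 120 matched, 111 promoters) the shares were 8.11%, 1.80%, 0%, 7.21% and 1.80%. For those lower (41 of 57, 47 promoters) they were 8.51%, 0%, 0%, 8.51% and 0%. These are letter matches and say nothing of binding.

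Activity-regulated genes split into a part that was lower in darkness and a part that was higher. Of 16 tested immediate early transcription factors, 10 excitatory pairs were lower and 7 higher of 101 (16.8%, beside 3.52% of all excitatory pairs). Their median was -0.29, and the quasi-likelihood test called 4. Of 28 activity-regulated effectors, 19 excitatory pairs were lower and 1 higher of 195 (10.3%, beside the same 3.52%). Their median was -0.16, and the quasi-likelihood test called 7. Fos, Bdnf, Nr4a1 and Homer1 were not called in any type. Per the study's methods, mice were collected under red light in the first hours after the light phase, so NR values are not levels under light. The part of that timing was not tested.

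Of the 19 effector pairs that fell, 8 were in L2/3, 5 in L6CT, 3 in L6IT, 2 in L5PT and 1 in L5IT. In L2/3, where 2.85% of all genes were lower (1.29% in L6CT), Scg2 went from 9.58 and 12.1 CPM to 5.18 and 3.87 (-1.31, SE 0.22, edgeR adjusted p 2.5e-07), and Nptx2, a pentraxin that gathers AMPA receptors at excitatory synapses on interneurons, from 4.63 and 7.204 to 2.04 and 1.45 (-1.80, SE 0.31). Ptgs2, the inducible cyclooxygenase, went from 4.75 and 5.28 to 2.28 and 1.66 (-1.39), and Rgs4, a regulator of G protein signalling, from 22.0 and 24.5 to 14.1 and 13.5 (-0.79). DR and NR libraries did not overlap for these 4 genes, which was so of all 1357 genes called in L2/3 and of 51.8% of all genes tested there. In deeper layers, Vgf, a neurotrophin-inducible peptide precursor, fell in L5PT from 9.61 and 9.13 to 4.14 and 2.78 (-1.43), and Dusp4, a MAP kinase phosphatase, fell in L5IT, L6IT and L6CT (-1.49, -2.60 and -1.77). Spry2, an inhibitor of receptor tyrosine kinase signalling, fell in L2/3, L5PT, L6IT and L6CT, and Arc, which drives AMPA receptor endocytosis, in L6CT (8.20 and 11.7 against 5.72 and 4.39, -0.98). Penk, the enkephalin precursor, fell in L2/3 (1.30 and 1.84 against 0.344 and 0.226, -2.49) and L6IT (3.81 and 3.73 against 0.679 and 0.821, -2.35).

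Among the transcription factors, Npas4, which is induced by depolarization and recruits inhibitory synapses, fell in L2/3 from 11.3 and 13.8 CPM to 7.11 and 5.79 (-1.01, SE 0.19), and also in L5IT (-0.90) and L5PT (-1.16). Ier5 was lower in 5 types, in L6CT at 17.3 and 16.5 against 9.08 and 7.56 (-1.03). Egr4 fell in L2/3 (-1.12) and Egr1 in L6IT (18.0 and 19.0 against 12.3 and 9.19, -0.80). Fos in L2/3 was 1.35 and 2.03 in NR and 1.62 and 0.859 in DR (-0.49, SE 0.39), with overlapping groups, and Bdnf was 19.3 and 24.9 against 11.2 and 16.7 (-0.71, edgeR adjusted p 0.060). Homer1 in L2/3 overlapped too (275 and 328 against 311 and 299.6).

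The immediate early genes that rose were Nr4a3, Nr4a2, Egr3 and Jun. Nr4a3, an orphan nuclear receptor, went from 2.90 and 3.25 CPM to 5.89 and 11.5 in L2/3 (1.45, SE 0.36), from 2.38 and 2.62 to 6.33 and 7.41 in L4 (1.47, SE 0.21) and from 1.19 and 1.53 to 6.15 and 16.9 in L5IT (3.08, SE 0.54), and it rose in L5PT as well (1.44). Egr3 rose in L4 from 3.45 and 5.08 to 9.67 and 10.8 (1.27), Jun in L5IT (1.17) and Nr4a2 in L2/3 (0.569 and 1.07 against 1.39 and 6.12, 2.16). The DR male library was the higher of the pair for Nr4a3 in all 3 types given and for Nr4a2. In the GR-KO libraries the Nr4a3 fold changes were near 0 (-0.06 in L2/3, -0.26 in L4 and -0.05 in L5IT), and in L4 its NR male value of 13.5 CPM lay above both DR libraries of that genotype (6.25 and 6.17). The difference between genotypes was not called for Nr4a3.

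**Figure D4:**
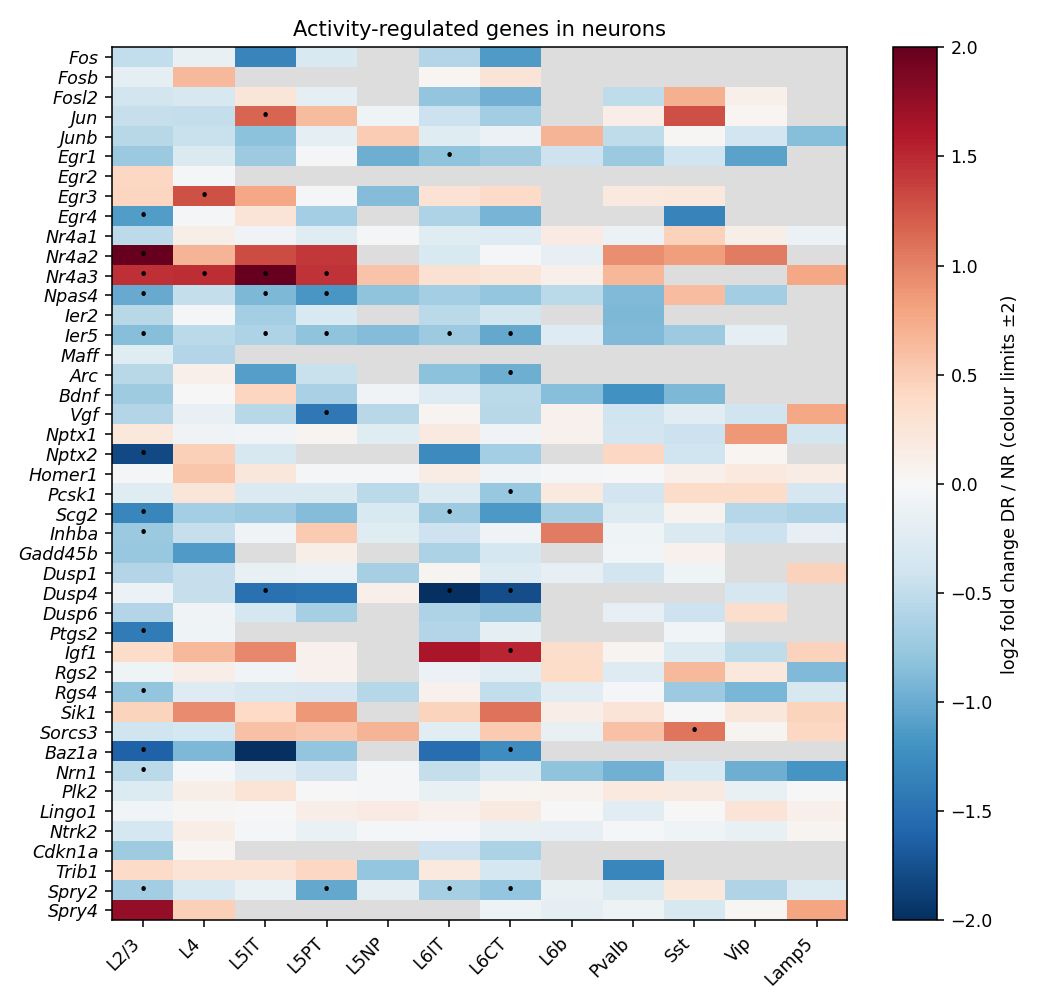
Log2 fold change of DR over NR in GR-Con animals (colour, limits ±2) for immediate early transcription factors and activity-regulated effectors in neuron types, with a dot where the gene was called and grey where it was not tested. Dots on blue, such as Scg2 (-1.31) and Nptx2 (-1.80) in L2/3, outnumber dots on red, such as Nr4a3 in L2/3, L4, L5IT and L5PT.

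Calls among genes for receptors, channels and guidance molecules went in both directions. The quasi-likelihood test called fewer of the excitatory pairs, 10 of the 29 called for glutamate receptors, 3 of 15 for GABA genes, 15 of 36 for channels, 12 of 35 for axon genes and 8 of 22 for adhesion genes. In excitatory types 26 pairs of glutamate receptor genes were higher and 3 lower of 183 (15.8%, beside 3.52% of all pairs, median 0.10). In inhibitory types 2 were higher and 2 lower of 89 (4.49%, beside 0.798% of all pairs). Gria1, an AMPA receptor subunit, went from 561 and 550.4 CPM to 1126 and 953 in L2/3 (0.86, SE 0.16, edgeR adjusted p 9.0e-06) and was also higher in L4, L5IT, L5PT and Lamp5. Grik4, a kainate receptor subunit, went from 72.6 and 72.3 to 152 and 139 in L2/3 (0.96, SE 0.14), and rose in L5IT, L5PT, L5NP and Sst. Grin3a, an NMDA receptor subunit characteristic of immature synapses, was higher in 5 excitatory types, and in L5IT went from 1.79 and 1.06 to 10.9 and 15.2 (3.19). The DR libraries were the higher ones in each case.

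Calls among GABA genes were more often lower, with 12 pairs lower and 3 higher of 132 in excitatory types (11.4%, beside 3.52% of all pairs, median -0.14). Of those 12, 5 were Pvalb itself, the calcium-binding protein of basket interneurons, whose level in L6IT nuclei was 1.27 and 0.884 CPM in NR and 0.212 and 0.0513 in DR. It also fell in parvalbumin cells (values further on), 3 inhibitory markers summed to 3.58 and 5.69 CPM against 4.37 and 2.72 in L6IT nuclei, and the part of interneuron RNA was not tested. Gabrd, the delta subunit of extrasynaptic GABA-A receptors, fell in L5IT from 8.95 and 12.6 to 4.99 and 4.41 (-1.20, SE 0.25), and in L5PT, Pvalb and Sst. Gabrb2 fell in L5IT (-0.46) and Gabra2 in L6CT (81.7 and 97.8 against 38.2 and 53.1, -0.97). Gabrg3 was higher in L4 and L5IT.

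Of voltage-gated channel pairs 24 were higher and 12 lower of 340 in excitatory types (10.6%, beside 3.52% of all pairs, median 0.02). Scn1a, the sodium channel Nav1.1, was lower in 6 excitatory types, in L2/3 at 489 and 591 CPM against 282 and 336 (-0.85, SE 0.19). Cacna1h, a T-type calcium channel, was higher in L2/3, L4, L6IT and L6CT (9.48 and 10.1 against 21.5 and 16.5 in L2/3), and so was Kcnn3, a calcium-activated potassium channel, in L2/3, L5IT, L5PT and L6CT (21.6 and 17.8 against 44.8 and 45.01 in L2/3, 1.14, SE 0.17). Kcnmb2, an auxiliary subunit of the BK channel, rose in L2/3 from 0.667 and 0.852 to 5.57 and 4.36 (2.65, SE 0.28).

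Among axon growth and guidance genes 27 excitatory pairs were higher and 8 lower of 238 (14.7%, median 0.07). Among synaptic adhesion genes 19 were higher and 3 lower of 292 (7.53%, median 0.05), beside 3.52% called over all excitatory pairs. Slit1, a secreted ligand of Robo receptors, was higher in 5 types, in L2/3 at 20.7 and 20.9 CPM against 41.8 and 37.7 (0.89, SE 0.14). Gap43, a growth cone protein, rose in L4 (0.95) and in L5IT from 56.3 and 51.2 to 100.3 and 141 (1.17, SE 0.20), and Epha3, an ephrin receptor, in L5IT from 47.0 and 61.3 to 124 and 197 (1.57, SE 0.25). L5IT values and calls here include a minority of nuclei described further on. Without it the axon gene Ntng1 went from 2.51 to 0.10 and lost its call, while Robo1 (3.26 to 1.19) and Sema3e (2.87 to 1.44) kept theirs. Values without it are not given for Gap43 and Epha3. The adhesion molecule Tenm1 rose in L2/3 from 78.4 and 91.6 to 219.7 and 351 (1.71), in L4 and in L5IT. Cdh13, an atypical cadherin that marks a subset of L2/3 cells, was higher in L2/3, L4, L5IT, L5PT and L5NP. Its L5IT call, and that of another of the layer 2/3 type markers, was lost without a minority of nuclei described further on. Over the 5 layer 2/3 type markers examined, 8 excitatory pairs were higher and 1 lower of 40 (22.5%, beside the same 3.52%). The median was 0.29, and 4 were called by the quasi-likelihood test. The lower pair was Igsf9b in L4 (53.1 and 65.0 against 40.2 and 33.7). In L2/3 itself 2 of the 5 were called, both higher, the other 3 had fold changes below 0 that were not called, and the median was -0.30. Adamts2, a matrix protease, rose in L2/3 (37.0 and 21.1 against 86.6 and 55.8, 1.24) in both genotypes (1.36 in GR-KO).

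Layers also differed from each other. A fit over all 8 excitatory types with a term for each library, which removes what the types of 1 animal share, compared each type's response with the mean response of the other 7 by the quasi-likelihood F-test. It called 938 gene and type pairs, 385 in L2/3 (2.18%), 247 in L5IT (1.4%), 123 in L6CT (0.695%), 105 in L5PT (0.593%), 53 in L4 (0.299%), 13 in L6b (0.0735%), 9 in L6IT (0.0509%) and 3 in L5NP (0.017%). The total was 57 without the NR female library, 41 without the NR male, 2704 without the DR female and 3231 without the DR male.

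In L2/3 the response of Slc35f1, a putative solute transporter, exceeded that of the other types by 2.07 on the log2 scale (SE 0.14, adjusted p 4.3e-08), with 15.8 and 22.4 CPM in NR and 102 and 133 in DR. Pced1b exceeded the others by 1.09. Bmpr1b, a bone morphogenetic protein receptor, fell in L2/3 from 10.7 and 12.7 to 3.46 and 1.90 (-2.17, SE 0.30) and in L4 from 26.8 and 30.6 to 8.70 and 6.53 (-1.90, SE 0.19), while its log2 fold change in L5IT was 2.45, so its difference from the other types was -2.29 in L2/3 and -1.98 in L4. Ttl, tubulin tyrosine ligase, fell in L2/3 from 30.9 and 32.7 to 16.1 and 19.2 (-0.89), which was -0.65 relative to the others. In L4, Ptpro, a receptor phosphatase, rose from 0.682 and 0.745 to 5.82 and 16.4 (3.21 above the other types), and Enpp2, which makes lysophosphatidic acid, from 36.4 and 44.4 to 74.0 and 66.5 (1.11 above). Pdk1, a pyruvate dehydrogenase kinase, fell in L4 (59.5 and 60.7 against 39.0 and 33.6, -0.71), but its log2 fold change in L2/3 was much the same (-0.75).

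In the deep layers, L5PT differed from the mean of the other types in Slc35f1 (75.9 and 91.7 CPM against 209.7 and 345) and Rasgef1b on the rising side. The log2 fold change of Slc35f1 was larger still in L2/3 (2.57, against 1.73 in L5PT). On the falling side L5PT differed in Dnah9 (137 and 171 against 78.5 and 71.0, -1.82 relative to the others) and Adam18. Maml3, a Notch coactivator, fell in L5PT from 244 and 312 to 102 and 62.1 (-1.77, SE 0.25). L6CT was set apart by Spats2l (10.4 and 12.03 against 30.6 and 40.4, 1.45 above the others), the GTPase-activating protein Srgap3, Gabra2 and the growth factor gene Pdgfc, which fell from 80.6 and 80.0 to 32.8 and 36.6 (-1.21, and -1.89 relative to the others). Ugt8a, which makes myelin galactolipids, had 12.5 and 12.6 in L6CT in NR and 2.70 and 1.99 in DR (-2.42, SE 0.23), beside a sum over the 4 oligodendrocyte markers of 26.1 and 32.5 against 20.0 and 17.4 in these nuclei. L6IT differed from the mean of the other types in Cftr, the cystic fibrosis chloride channel (3.75 and 6.25 against 0.679 and 0.873), Fat4, Gm26691 and Pip5k1b, and L6b in Zbtb20 and Slit1. In L6CT the log2 fold change of Cftr was also low, at -1.79, and Pip5k1b stood at -0.90 in L6CT and -0.85 in L6IT against 2.61 in L5IT. In L5NP, Prkd1, a protein kinase D, rose from 17.9 and 14.8 to 56.5 and 72.8 (1.98, SE 0.21) and Pde10a, a cyclic nucleotide phosphodiesterase, fell from 701 and 683 to 281 and 345 (-1.14, SE 0.15).

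Some gains, several of the largest of L5IT among them, lay in a minority of nuclei. In L2/3, Tshz2, a zinc finger gene that marks near-projecting neurons, rose from 4.16 and 5.86 CPM to 101 and 158 (4.65, SE 0.33). Nuclei with at least 5 Tshz2 UMIs were 7 of 2531 (0.277%, Wilson 95% interval 0.134 to 0.570) and 14 of 2957 (0.473%, 0.282 to 0.793) in NR, and 379 of 3300 (11.5%, 10.4 to 12.6) and 220 of 2950 (7.46%, 6.56 to 8.46) in DR. Intervals cover counting error only. With each nucleus thinned to 5704 UMIs the shares were 0% and 0% (a count of 0 allows 0.119% and 0.102%) against 2.55% and 5.29%, while in oligodendrocytes, which lack the gene, they were at most 0.134%. Median depth was 19494 to 22846 UMIs in L2/3 and 7858 to 10220 in oligodendrocytes. In GR-KO the unthinned shares were 0.784% and 9.38% in NR and 6.19% and 11.9% in DR, so the normally reared GR-KO male had a share like the dark-reared libraries.

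In L5IT, Zfp804b, a zinc finger gene, rose from 51.2 and 34.6 CPM to 239 and 831 (3.65, SE 0.56). Nuclei with at least 5 Zfp804b UMIs were 6.60% (interval 4.61 to 9.38) and 3.79% (2.31 to 6.15) in NR and 19.5% (16.5 to 23.0) and 41.1% (37.0 to 45.3) in DR. Thinned to 5704 UMIs the shares were 0.708% and 0.505% against 9.06% and 29.2%, with 0.191% to 0.567% in oligodendrocytes. In GR-KO the shares were 14.5% and 34.7% in NR and 11.6% and 25.4% in DR before thinning. Median depth of these L5IT libraries was 39567 and 29008 UMIs in NR against 19278 and 19573 in DR. Thinned, the GR-KO shares were 1.57% and 23.5% against 4.69% and 17.7%. In the DR libraries the Zfp804b-rich nuclei held 354 and 329 CPM of Robo1, a Slit receptor of growing axons, against 18.0 and 31.3 in the other L5IT nuclei, and 468 and 307 of Ntrk3, the neurotrophin-3 receptor, against 31.2 and 19.5. They held less Rorb, a layer 4 and 5 transcription factor (133 and 97.1 against 518 and 497). The few such nuclei in NR, 28 and 15, were unlike these, with 45.7 and 85.0 CPM of Robo1 and 699.5 and 533 of Rorb. Osbpl3 was low in both, at 51.3 and 70.6 in the rich nuclei and 114 and 119 in the others.

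With those marker-rich nuclei left out of every library, an alternative added after the data were seen, L5IT had 324 called genes instead of 877 and L2/3 1291 instead of 1357. Ntrk3 in L5IT went from 2.67 to 0.57 and lost its call, as did Ntng1 (2.51 to 0.10), Cdh13 (2.83 to 0.93) and Nfia (2.33 to 0.62), and Robo1 went from 3.26 to 1.19. Zfp804b itself, on which the nuclei were removed, went from 3.65 to -0.27. Genes that kept their calls in L5IT included Osbpl3 (-2.42 to -2.18), Syt17 (3.17 to 2.24), Rspo2 (3.73 to 2.16), Sema3e (2.87 to 1.44), Grin3a (3.19 to 1.45), Kcnip4 (1.53 to 1.01) and Rorb (-1.18 to -0.74). Tshz2 in L2/3 kept its call at 1.78, and other large gains there moved less, with Il1rapl2 from 3.91 to 3.68, Slc35f1 from 2.57 to 2.36, Kcnmb2 from 2.65 to 2.73 and St6galnac5 from 3.84 to 2.94. Nuclei were left out of L2/3 and L5IT only, so the numbers of the other types still hold any such minority. Why the share of such nuclei differed between libraries was not tested.

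**Figure D5:**
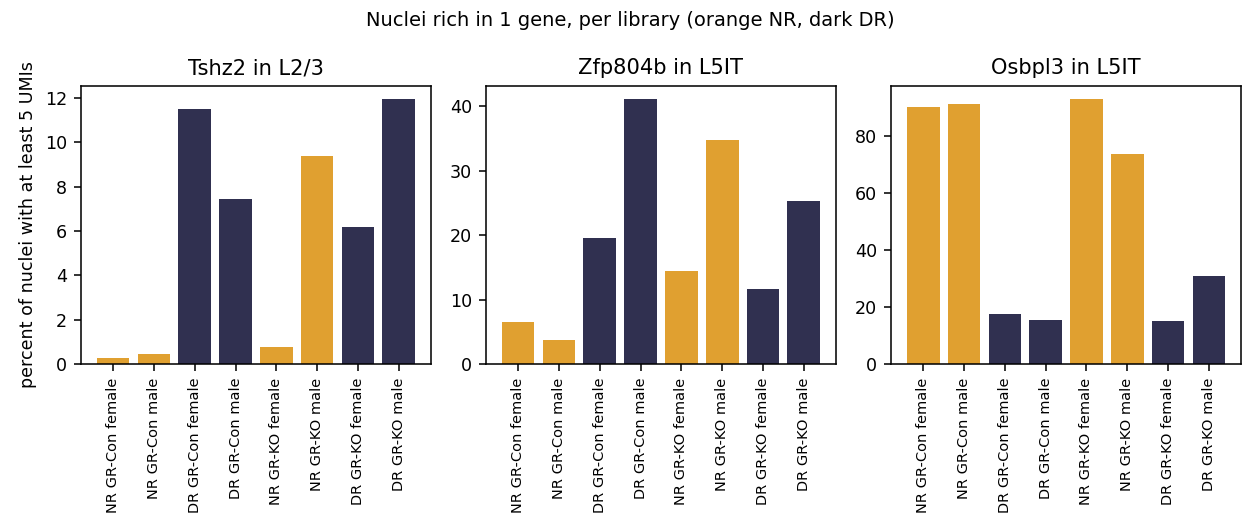
Percent of nuclei with at least 5 UMIs of Tshz2 in L2/3, of Zfp804b in L5IT and of Osbpl3 in L5IT, in each of the 8 libraries (orange NR, dark DR). Tshz2-rich nuclei were 0.277% and 0.473% in NR GR-Con and 11.5% and 7.46% in DR GR-Con, but 9.38% in the normally reared GR-KO male, whereas Osbpl3-rich nuclei fell from 90.1% and 91.2% to 17.8% and 15.7% in GR-Con.

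Among interneurons, parvalbumin cells had the most calls. Gpc5, a glypican, fell from 68.6 and 94.2 CPM to 43.2 and 44.99 (-0.89, SE 0.17), and Egfem1 rose from 27.8 and 26.4 to 69.0 and 71.7 (1.38, SE 0.13, edgeR adjusted p 1.0e-22). Tafa1, a secreted chemokine-like protein, rose from 14.3 and 25.6 to 70.9 and 44.8 (1.53, SE 0.28). Bcan, the perineuronal net proteoglycan brevican, fell from 69.2 and 68.8 to 46.3 and 45.5 (-0.59, SE 0.12), Gabrd from 71.1 and 71.6 to 41.7 and 44.3 (-0.73) and Pvalb from 51.4 and 56.0 to 38.4 and 33.9 (-0.57, SE 0.13). Grin2a, an NMDA receptor subunit, fell from 1153 and 1079 to 786 and 744 (-0.55), and Npy, Dbp and Aldoc fell as well. In GR-KO parvalbumin cells Bcan changed by 0.02 and Pvalb by 0.08. The synthetic enzyme gene Gad1 was not called (310.4 and 318 against 335 and 266).

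Sst, Vip and Lamp5 cells shared few calls. Mageb18, Pcdh19, Adam12 and Gm30382 were each higher in 3 of the 4 inhibitory types, and Pcdh19, a protocadherin, went from 55.0 and 47.3 CPM to 85.4 and 83.6 in Pvalb cells (0.73). In Sst cells Sorcs3, a sorting receptor, rose from 54.6 and 51.6 to 116 and 109 (1.08, SE 0.13, edgeR adjusted p 7.3e-12), Tenm3 rose (1.28), and Frmpd1 and the phosphodiesterase Pde7b fell (-1.03 and -1.06). In Vip cells Col24a1, a fibrillar collagen, fell from 99.9 and 107 to 50.9 and 46.4 (-1.09, SE 0.13), and Fkbp5, a glucocorticoid-induced co-chaperone, rose from 40.7 and 43.1 to 60.8 and 62.9 (0.56). In Lamp5 cells Cntnap4, a synaptic adhesion molecule, rose from 40.3 and 58.0 to 114 and 135 (1.36, SE 0.19), Fbxl7 rose (1.44), and Car10 and Brinp3 fell (-1.31 and -1.08). The peptide genes Sst and Vip were not called in their own cells (39.3 and 33.9 against 39.5 and 24.6 for Sst, 376 and 413 against 359 and 268 for Vip). None of 32 immediate early gene pairs was called in interneurons (beside 0.798% of all inhibitory pairs) by the likelihood ratio test, the quasi-likelihood test or DESeq2, with 11 at an unadjusted p under 0.05 in the likelihood ratio test and 9 in the quasi-likelihood test.

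Astrocytes, the cells that carry the virus, had 21 called genes (0.147%), 11 higher (0.0772%) and 10 lower (0.0702%) in DR. Of the 21, 5 had at least 4 times the CPM in excitatory neurons, 3 of them higher in DR. Such genes were 23.8% of the called and 8.23% of the tested genes. Before adjustment 623 genes had a p under 0.05, and the quasi-likelihood test called 0, with 647 at an unadjusted p under 0.05. Aldh1a1, a retinoic acid synthesizing enzyme, fell from 475 and 499.9 CPM to 109 and 219.97 (-1.57, SE 0.36, edgeR adjusted p 0.012), Thrsp, a regulator of lipogenesis, from 76.6 and 63.5 to 29.9 and 31.9 (-1.19, SE 0.23), and Pde10a from 262 and 698 to 90.5 and 52.5 (-2.76, SE 0.49). Vcan, the proteoglycan versican, rose from 26.7 and 25.6 to 51.2 and 48.4 (0.91), and Erbb4, a neuregulin receptor, from 38.4 and 42.2 to 75.8 and 98.1 (1.10). Ifit3, an interferon-induced gene, was 2.24 and 3.29 in NR and 30.3 and 10.1 in DR, and 45.8 in the DR female but 5.79 in the DR male in OPC. The glutamate transporter gene Slc1a2 (10077 and 10547 against 9165 and 9633) and the connexin gene Gja1 (141 and 146 against 126 and 149) were not called. Astrocyte calls rested on single libraries, with 2 genes without the NR female, 5 without the NR male, 293 without the DR female and 1358 without the DR male.

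Glucocorticoid receptor targets were looked at because the animals carry the floxed receptor. In glia 0 of 49 pairs were called by the likelihood ratio test, the quasi-likelihood test or DESeq2, with 8 and 12 at an unadjusted p under 0.05 in the first and second test. The share called over all glial pairs was 0.313%, so 0 of 49 is near the background. Their median log2 fold change was -0.39, beside -0.0017 over all glial pairs. In astrocytes Fkbp5 was 47.6 and 129 CPM in NR and 72.8 and 21.5 in DR, and Tsc22d3, another classic target, 65.4 and 90.1 against 23.6 and 75.3, with overlapping groups. In excitatory types 2 of 125 pairs were lower (1.6%, under the 3.52% called over all pairs), Tsc22d3 in L5PT and Aldoc in L5IT. Heat shock and stress genes had 0 of 54 calls in excitatory types by any of the 3 tools (4 at an unadjusted p under 0.05 in the likelihood ratio test and 7 in the quasi-likelihood test).

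Oligodendrocytes had 81 called genes (0.615%), 73 higher (0.555%) and 8 lower (0.0608%), of which 30 had at least 4 times the CPM in excitatory neurons and all 30 were higher in DR. Such genes were 37.0% of the called and 9.39% of the tested genes. The 18 neuronal genes summed to 3670 and 3962 CPM in NR and 5191 and 4420 in DR in oligodendrocytes, and to 2932 and 3171 against 4571 and 3706 in astrocytes, and their part in these calls was not tested. Apart from such genes, Eps8, an actin regulator, rose from 39.7 and 44.3 to 164 and 99.9 (1.61, SE 0.26, edgeR adjusted p 3.2e-06) with 1.23 in GR-KO, and Cerk, ceramide kinase, from 37.7 and 42.8 to 111 and 77.1 (1.18). Hapln2, a link protein of the node of Ranvier, fell from 106 and 117 to 30.1 and 62.9 (-1.27, SE 0.34). Mbp, myelin basic protein, was not called (10191 and 9531 against 8321 and 8793). Oligodendrocyte calls were 2 without the NR female, 7 without the NR male, 145 without the DR female and 1022 without the DR male. The quasi-likelihood test called 0, with 895 at an unadjusted p under 0.05.

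OPC had 20 called genes (0.174%), 15 higher (0.13%) and 5 lower (0.0434%). Of the 20, 9 had at least 4 times the CPM in excitatory neurons, and 8 of these were higher in DR. Such genes were 45% of the called and 3.28% of the tested genes, and the part of neuronal RNA in these calls was not tested. Grm8, a group III metabotropic glutamate receptor, fell from 152 and 163 CPM to 78.7 and 52.1 (-1.24, SE 0.20, edgeR adjusted p 2.0e-06), Abca6 from 60.4 and 56.2 to 23.6 and 28.5 (-1.13), and Ninj2 from 87.4 and 95.8 to 47.6 and 46.8 (-0.94). Inka2 rose from 30.0 and 35.0 to 58.7 and 91.8 (1.22). Osbpl3 was the single OPC gene of the quasi-likelihood test. Without the NR female library OPC had 7 calls, without the NR male 40, without the DR female 59 and without the DR male 159.

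The GR-KO libraries give the DR against NR contrast in other animals, though at unequal depth. Median UMIs per nucleus were 29223 and 22827.5 in NR GR-KO and 14861 and 14928.5 in DR GR-KO. In GR-Con they were 15884 and 17759.5 in NR and 20161 and 16968 in DR. The part of depth in the comparison of genotypes was not tested. Of the excitatory pairs called in GR-Con and tested in GR-KO, 82.0% of 4102 had the same sign there, with 78.0% of 409 in inhibitory types and 73.7% of 118 in glia. Over all genes tested the share of the same sign was itself 57.1% to 71.6% in the excitatory types, 58.5% to 61.1% in the inhibitory types and 58.2% to 61.3% in glia. In L2/3, 85.0% of the genes called lower had DR and NR libraries fully apart in the same direction in GR-KO, against 43.0% of those called higher and 46.6% of all tested genes. The shares were 79.6%, 41.8% and 41.5% in L4, 83.7%, 66.7% and 43.6% in L6CT, 84.6%, 58.2% and 38.1% in L6IT, and 50.5%, 22.3% and 30.8% in L5IT. In L5PT the genes called lower and higher were close (35.3% and 33.5%, beside 29.0% of all tested), and in Lamp5 the order was the other way (38.9% and 64.3%, beside 30.3%). Genes called in both genotypes in the same direction numbered 420 in L2/3 (4 in the opposite direction), 225 in L6CT (2), 58 in L5IT (4) and 30 in L5PT (7). The genes called in GR-KO at all numbered 1544, 1087, 285 and 245 in these types, and the overlap depends on those numbers. Scg2 in L2/3 had log2 fold changes of -1.31 in GR-Con and -2.15 in GR-KO, Nptx2 -1.80 and -1.82, Ptgs2 -1.39 and -2.41, and Penk in L6IT -2.35 and -4.45.

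Smaller lists are given by their counts, beside a share called over all pairs of 3.52% in excitatory types, 0.798% in inhibitory types and 0.313% in glia. Neuropeptide genes had 1 pair higher and 5 lower of 52 in excitatory types (11.5%, 1 called by the quasi-likelihood test), among them Npy in L4 and L5PT and Cck in L5NP (6.43 and 11.6 CPM against 3.52 and 2.53). Perineuronal net and matrix genes had 11 higher and 5 lower of 137 (11.7%, 3 of them called by the quasi-likelihood test), with Ptprz1, a receptor phosphatase that binds matrix proteoglycans, higher in 4 excitatory types (6.12 and 8.52 against 19.8 and 15.4 in L2/3) and Acan, aggrecan, lower in L2/3 and L5PT. Astrocyte genes in excitatory nuclei had 8 higher and 4 lower of 189 (6.35%, 3 called by the quasi-likelihood test). Slc1a3, the glial glutamate transporter, stood at 4.79 and 6.04 against 25.2 and 20.1 in L2/3 (2.01, SE 0.20), but was called lower in L5PT (-1.03, SE 0.20). The 4 astrocyte markers, of which Slc1a3 is itself 1, summed to 17.4 and 17.1 CPM in NR and 40.5 and 31.2 in DR in L2/3 nuclei. In astrocytes they summed to 3362 and 3656 against 2674 and 3335. The sum holds Slc1a3 and so is no separate measure beside it, and the part of astrocyte RNA was not tested. Microglial genes had 1 higher and 2 lower of 78 (3.85%), vascular genes 2 and 2 of 70 (5.71%) and the 18 neuronal genes 5 and 0 of 144 (3.47%), of which the first and the last are near the background. The 2 vascular pairs that were higher were both Dcn, decorin, in L5IT (0.358 and 0.118 against 4.92 and 4.94) and L6IT. In inhibitory types axon genes had 7 higher and 0 lower of 119 (5.88%), adhesion genes 7 and 0 of 142 (4.93%), channels 6 and 1 of 169 (4.14%) and GABA genes 0 and 3 of 68 (4.41%). The quasi-likelihood test called 2, 2, 2 and 1 of these inhibitory pairs. In glia adhesion genes had 4 higher and 0 lower of 107 (3.74%) and matrix genes 4 and 1 of 50 (10.0%). The quasi-likelihood test called 0 in both glial lists, with 33 and 11 pairs at an unadjusted p under 0.05.

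The composition of the tissue did not pass the threshold for any type. Shares of nuclei were compared for 20 types by the edgeR quasi-likelihood F-test and 0 were called, with 1 at an unadjusted p under 0.05 and a smallest adjusted p of 0.333. The 1 was L6b, at 0.954% and 0.974% of nuclei in NR and 1.34% and 1.31% in DR, and L5IT was also higher in both DR libraries (3.19% and 3.01% against 4.16% and 3.58%). L2/3 made up 19.0% and 22.5% of nuclei in NR and 23.9% and 19.5% in DR, L4 21.2% and 20.9% against 20.3% and 15.3%, and astrocytes 9.17% and 8.50% against 7.19% and 11.8%. Microglia shares were 4.30% and 0.0152% in NR and 0.0290% and 5.84% in DR, low in the 2 libraries whose lowest UMI counts were 4635 and 5704. In summed counts, fewer nuclei of a kind within a type and less RNA per nucleus cannot be told apart.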

How the data were processed

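Nuclei from V1 were profiled with the 10x 3′ assay by the authors, who aligned reads to mm10 with an added eGFP sequence (Cell Ranger 8.0.1) and filtered, called doublets with DoubletFinder and annotated in Seurat 5.3.0, per the study's methods and processing notes. The deposited matrix holds UMI counts, not normalized, for 26711 features in 102330 nuclei, and the deposited metadata give library, rearing, genotype, cell type and a mitochondrial percent (library medians 0.0079 to 0.0148 percent in GR-Con). Doublets were not called again.

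UMIs were summed per library and deposited type where each library had at least 10 nuclei (Python 3.11.15, pandas 2.3.3). Genes passed filterByExpr and were tested two-sided in edgeR 4.0.16 (R 4.3.3) with TMM, estimateDisp and the likelihood ratio test on the 4 GR-Con libraries, and called at an adjusted p under 0.05 within the type. The study used that likelihood ratio test on these nuclei for genotype and, for rearing in another assay, the quasi-likelihood F-test, which was an alternative here, as was DESeq2 1.42.0. CPM printed are UMIs over the total UMIs of that library and type, without TMM factors. The type-specific test put all 8 excitatory types in 1 quasi-likelihood fit with library as a block, and the rearing by genotype interaction used all 8 libraries. The rearing, type-specific and interaction tests were checked on simulated counts, and the test of shares of nuclei was not. Figures used matplotlib 3.10.9. Nuclei were thinned with a fixed seed.

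Named genes were those called in the most types of a class, up to 3 per type and direction by size of change among well-expressed calls (average log2 CPM of at least 5, quasi-likelihood p under 0.05, groups apart, without neuron-enriched genes in glia), up to 2 per type by the type-specific test and up to 4 per list. Other list members, nuclei rich in a gene and genes given as not called were chosen after values were seen. The members and lists were chosen with earlier results of these data known. Positions came from GENCODE on GRCm38 and promoters from RefSeq. Sex-chromosome genes Xist, Tsix, Ddx3y, Eif2s3y, Kdm5d and Uty were not named, and 5 rare types were not tested. A few genes are not reported here, although the counts of calls and of list members include them.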

Additional observations from a re-analysis of the deposited data

Results flagged for a closer look

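For 21 of the named gene and type pairs the response to darkness in GR-Con differed from that in GR-KO by a test of the difference itself (edgeR likelihood ratio test over all 8 libraries, adjusted within the type). Values are the log2 fold change in GR-Con minus that in GR-KO, where depth differed between NR and DR as given above. Over all types 394 of 217689 pairs passed (0.181%), 62 of them in oligodendrocytes, 60 in L5IT and 57 in astrocytes, and the quasi-likelihood test called 6, which lay in Pvalb (2), astrocytes (1) and OPC (3), so the differences given for L2/3, L5IT, Vip and the other types were not called by it. The fall of Osbpl3 was larger in GR-Con, by -1.38 in L2/3 (adjusted p 9.4e-07), -1.36 in L5IT (0.0080) and -1.28 in Vip (0.012). In parvalbumin cells the fold changes had opposite signs for Tafa1, at 3.30 (1.53 in GR-Con and -1.76 in GR-KO), Gpc5, at -1.85 (-0.89 and 0.97), and Egfem1, at 1.60 (1.38 and -0.22).

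Among excitatory types the differences were 3.94 for AU022754 in L6IT (where it was at most 1.15 CPM in any GR-Con library), 2.66 for Gpc6 in L6IT, 3.87 for Rspo2, 3.52 for Sema3e and 1.69 for Kcnip4 in L5IT, 2.04 for Slc35f1 in L5PT, 0.79 for Enpp2 in L4, and 2.61 for Kcnmb2 and 1.55 for Ptprz1 in L2/3. In L5IT the NR GR-KO male library held 68.8 CPM of Rspo2 and 118 of Sema3e, against 10.6 and 23.9 in the NR GR-KO female. The male library also had the higher share of Zfp804b-rich nuclei (34.7% against 14.5%, and 23.5% against 1.57% thinned). In glia they were 1.40 for Erbb4 in astrocytes, 2.13 for Galnt18, 4.11 for 6530403H02Rik and 1.66 for Gabrg3 in oligodendrocytes, and 6.16 for 6530403H02Rik and 0.93 for Gabrg3 in OPC. 6530403H02Rik was at most 7.56 CPM in OPC in any GR-Con library, and at 0 in the NR male.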

How the results depend on the processing

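Numbers of calls moved with the test, the depth and single libraries. The 4240 excitatory calls became 965 by the quasi-likelihood test, 938 thinned to 1000000 UMIs and 1447 to 8003 with 1 library left out, while DESeq2, other size factors, no filter, a sex term, all 8 libraries and the UMI-limit alternatives gave 2940 to 5586. The 423 inhibitory calls became 85 by quasi-likelihood, 187 by DESeq2, 640 with a sex term, 239 with all 8 libraries, 92 thinned and 171 (without NR male) to 800 (without DR male). Without the NR female they were 249 and the share higher went from 67.4% to 47.4%, and without the DR female 538. The 122 glial calls became 1 by quasi-likelihood, 239 with all 8 libraries, 61 thinned, 253 with a UMI-limit class term and 11 (without NR female) to 2539 (without DR male), with 52 without the NR male and 497 without the DR female. The 938 type-specific calls became 2166 by the likelihood ratio test and 41 to 3231 with 1 library left out. The 394 interaction calls became 6 by quasi-likelihood, 1284 with a sex term and 163 to 2209. Shares of nuclei had 0 calls in every setting, with 0 to 3 at an unadjusted p under 0.05. Of 266 named pairs, 106 stayed called by quasi-likelihood, 196 by DESeq2, 264 with a sex term and 163 to 243 with 1 library left out, and 1 changed sign: Zfp804b in L5IT, at -0.27 without the Zfp804b-rich nuclei. Osbpl3 in L2/3 stayed called in 12 of 12 settings (-2.45 to -2.34), but in L6CT and L6IT in 10 of 11 each and in astrocytes in 8 of 11 (-1.90 to -1.05). At the shared UMI limit, glial calls were 96, with 80 of the 122 kept (65.6%), against 99.4% of excitatory and 99.1% of inhibitory calls. A DR against NR fit with 1 library left out takes its spread from the pair that stays whole. The cause of each move was not tested. The shared UMI limit, the UMI-limit class term and the removal of marker-rich nuclei were chosen after seeing the data. No paired analysis was possible because the library names carry a sex and no replicate number, and the sex term stands in its place.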
